A study of Homo sapiens with 9 samples.

Results

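The genes described here encode the protein part of the cytoplasmic ribosome. They were chosen by symbol alone: RPL or RPS followed by a number, with an optional A (or, for RPS, X), together with RPSA, RPLP0, RPLP1 and RPLP2. The choice found 76 genes among 23284 symbols, 30 of the small and 46 of the large ribosomal subunit, spread over 21 chromosomes. All 76 passed the filter on low values and were tested in every comparison. Of these, 75 were listed on 1 entry, RPS18 was listed on 6 entries whose values were summed, and none was at exactly 0 in any library. The ubiquitin-like fusion FAU, which also yields a ribosomal protein, lies outside the rule and is described separately.

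Paired-end RNA-Seq was run on 9 separately treated cultures of HT-29, an established human colon adenocarcinoma cell line. There were 3 groups of 3 cultures: DMSO vehicle alone (0 µM 5-Aza, the control), 5 µM 5-Aza and 10 µM 5-Aza, each for 5 days. 5-Aza (5-aza-deoxy-cytidine) is a cytidine analog that is incorporated into DNA and traps DNA methyltransferases, so that methylation is lost as cells divide. A single cell line was used, and the control cultures carry the solvent but no drug.

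The cytoplasmic ribosome translates nearly all cellular mRNAs. Its small subunit binds and decodes the mRNA, and its large subunit forms the peptide bond and releases the chain through an exit tunnel. One copy of most ribosomal proteins is needed per ribosome, and in growing epithelial tumor cells their mRNAs are among the most abundant of all. These mRNAs begin with a C followed by an unbroken stretch of pyrimidines, the terminal oligopyrimidine tract (TOP), through which their translation and stability are adjusted together in response to growth signals. RPSA, the gene the 3 doses were followed for, encodes a small-subunit protein that is also known as the laminin receptor. The study had picked it as differentially expressed on these same samples, from the RNA-Seq data only. In the paper, quantitative RT-PCR on the same RNA also found RPSA lower at the lower dose than in the control. The microarray on the same RNA gave the opposite direction.

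The annotated start sites of the members show that feature only in part. The stretches below are printed because they belong to the members with the largest and the smallest differences at 5 µM 5-Aza: 30 bases before and 20 bases from the annotated start, 5′ to 3′ on the gene's strand, from RefSeq on GRCh38.p14. The capitals mark the longest run of C and T that overlaps the stretch from 10 bases before to 20 bases after the start.
RPSA, chr3:39406690-39406739, plus strand: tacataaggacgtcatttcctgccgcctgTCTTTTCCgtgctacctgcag
RPL3, chr22:39319604-39319653, minus strand: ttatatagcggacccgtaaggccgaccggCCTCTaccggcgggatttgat
RPS4X, chrX:72277229-72277278, minus strand: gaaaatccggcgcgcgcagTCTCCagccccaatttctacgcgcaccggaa
RPL13A, chr19:49487578-49487627, plus strand: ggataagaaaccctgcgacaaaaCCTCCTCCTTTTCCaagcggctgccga
RPS26, chr12:56041888-56041937, plus strand: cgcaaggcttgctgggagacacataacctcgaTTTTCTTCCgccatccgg
RPL38, chr17:74203648-74203697, plus strand: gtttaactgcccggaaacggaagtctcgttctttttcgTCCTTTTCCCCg
RPL24, chr3:101686699-101686748, minus strand: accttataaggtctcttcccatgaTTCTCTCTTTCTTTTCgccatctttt

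The run was 8 bases in RPSA, 14 in RPL13A, 9 in RPS26, 11 in RPL38 and 16 in RPL24, but only 5 in RPL3 and in RPS4X. It covers the annotated start base in RPSA, RPL3, RPL13A and RPL24, but not in RPS4X, RPS26 and RPL38. In RPS4X and RPS26 that base is not a pyrimidine. In RPL38 it is a C that lies inside another, shorter run of C and T, which is not marked. RefSeq windows of 300 bases were found for 62 of the 76 members, 77 windows in all, and 14 members had none. Windows were searched for a C/T run of at least 8 bases that overlaps the stretch from 10 bases before to 20 bases after the start. Such a run was present in 79.2% of the members' windows and in 18.1% of the 35116 windows of all genes. It need not cover the start or begin with C, so it is not a TOP tract as such. The motif CTTTC on the gene's strand, from 10 bases before to 20 bases after the start, was present in 42.9% against 4.26%. The motif CGGAAG, the core bound by ETS factors, was found on either strand in 59.7% of the members' windows and in 19.5% of all windows. TATAAA was searched on the gene's strand in a short stretch before the start only, not in the whole window, and was found in 2.6% and 2.3%. CG dinucleotides, the sites that DNA methyltransferases act on, numbered a median of 23 per window in the members and 14 in all windows. A match describes these letters and is not evidence of a bound factor or a methylated site. At 5 vs. 0 µM 5-Aza, the 55 members with a longest run of at least 8 bases had a median log2 difference of -0.977, and the 7 members with a shorter run had a median of -1.166.

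The values are FPKM, the number of fragments of a gene scaled by its transcript length and by the size of the library, which the authors computed with Cufflinks. FPKM is divided by transcript length, but this does not make levels of genes of different length fully comparable here. Within a library the values summed to between 3692000000 and 5908000000 FPKM, far above what the name of the unit allows, and the scale behind this was not given in the sources used here. Values are therefore read as ratios and given as deposited, with M FPKM standing for 1000000 FPKM. The relative depth, recovered from 12 microRNA genes whose 46 values above 0 were whole multiples of 1 fragment (within 0.01), varied 2.573-fold between the libraries. It was 1.0, 1.51 and 2.135 in the control, 2.405, 2.286 and 2.573 at 5 µM and 1.271, 2.008 and 1.702 at 10 µM. Every 5 µM library was thus deeper than every control library, so depth and dose cannot be told apart in that comparison. RPSA rested on an estimated 927 to 4390 fragments per library. This estimate is rough: the length calibration behind it held within 15% for 327 of 509 genes. Within a group, the library 10 µM replicate 1 stood lowest in the members' median. Colon epithelial markers were high in all groups, with EPCAM between 2.26 and 3.55 M FPKM. The summed level of the 10 epithelial markers was 82.9 to 99.3 M FPKM in the control, 35.2 to 39.9 at 5 µM and 27.5 to 48.3 at 10 µM, and 6 of 10 fell at 5 vs. 0 µM while 2 rose. The 6 fibroblast markers summed to at most 0.0887 M FPKM in any library and 4 of them rose at 5 µM. The 4 endothelial markers summed to at most 0.0124 M FPKM and 3 of them rose, with CDH5 and KDR at 0 in every control library. The leukocyte list summed to between 4.56 and 8.94 M FPKM, most of it LYZ, while PTPRC reached at most 983 FPKM, and 2 of its 6 genes rose and 1 fell. Over all symbols 17.7% fell and 21.3% rose at 5 vs. 0 µM. What part the changes of these markers have in the results below was not tested.

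By FPKM, ribosomal protein mRNAs were a large share of the control transcriptome. In the control, 42, 43 and 41 members were among the 100 highest symbols of the 3 libraries. The members' control means had a median of 8.032 M FPKM, against 0.0629 M FPKM over all symbols above 0. The median was 11.82 M FPKM for the small-subunit and 6.464 M FPKM for the large-subunit genes. Although a ribosome holds about one copy of most of these proteins, the spread between members was wide, and 63 of 76 members lay within 4-fold of the median. Part of that spread may come with transcript length, which was not tested.

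RPLP1, RPLP2, RPS6 and RPS21 were among the 5 highest members. RPLP1 and RPLP2, the acidic proteins of the stalk that recruits elongation factors, averaged 32.3 ± 3.39 and 31.8 ± 3.45 M FPKM (SD, n = 3), and RPS6, the substrate of S6 kinase, averaged 31.7 ± 3.64. These 3 neighbours do not differ beyond their spread. The bottom was held by RPL36A at 0.20025 ± 0.0328, RPL9 at 0.265 ± 0.0284, RPS28 at 0.457 ± 0.126, RPL21 at 0.478 ± 0.111 and RPS26 at 0.539 ± 0.0890 M FPKM, the only 5 members with a control mean under 1 M FPKM. Among these, RPS28, RPL21 and RPS26 do not differ beyond their spread. Ribosomal protein genes have many processed copies elsewhere in the genome, and reads of a gene and its near copies can be split in the counting. Beside RPL21, the symbol RPL21P28 was listed at 2.84, 2.58 and 2.32 M FPKM in the control.

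**Figure D1:**
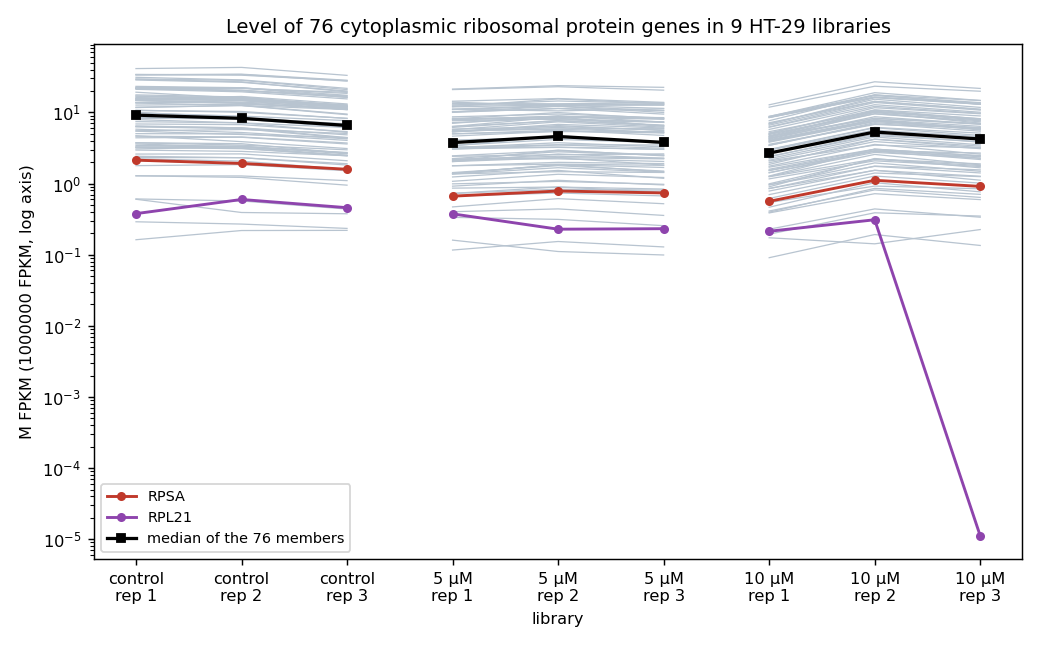
Level of the 76 ribosomal protein genes (M FPKM, log axis) in each of the 9 libraries; grey lines join a gene's values within a group, black squares are the median of all members, red is RPSA and purple is RPL21. The lines keep nearly the same order in all groups, the median is lower in every treated library than in every control library, and RPL21 leaves its range in 1 library, 10 µM replicate 3.

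The spread between members, taken as the SD of log2(FPKM + 1) over the 76 genes within a library, was 1.718, 1.699 and 1.668 in the control and 1.666, 1.694 and 1.707 at 5 µM. The groups overlap, and the means differed by -0.00601 (exact permutation test, 2-sided p = 0.7; the smallest p that 3 against 3 allows is 0.1). At 10 µM it was 1.612, 1.693 and 2.621, and the high value of replicate 3 came with 1 gene: without RPL21 the SD of that library was 1.603. The mean at 10 µM differed from that at 5 µM by 0.286 (p = 0.9, same exact test) and from the control by 0.280 (p = 0.9), and without RPL21 by -0.0375 and -0.0392. An unchanged SD does not mean that single members kept their places. Over the 9 libraries the SD of a member's log2 value had a median of 0.597, and after subtracting the members' median in each library it had a median of 0.121, with 71 of 76 members under 0.25. RPS13 at 0.0412 and the 5S rRNA-binding proteins RPL11 at 0.0432 and RPL5 at 0.0567 followed the family median most closely, and RPL21 at 4.83, RPL36A at 0.599, RPL3 at 0.310, RPL12 at 0.288 and RPS28 at 0.271 least closely. These SDs describe 9 libraries that include the treated ones.

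The first comparison, 5 µM vs. 0 µM 5-Aza, asks what the lower dose changed. Ribosomal protein mRNAs fell as a family, with a median ratio of 0.504 between the group means at 5 µM and in the control. The members' median was 9.161, 8.263 and 6.557 M FPKM in the control and 3.768, 4.588 and 3.793 M FPKM at 5 µM, and the groups do not overlap. By limma, 71 of 76 members (93.4%) fell at an adjusted p of at most 0.05 and none rose, whereas among all 20051 symbols tested 17.7% fell and 21.3% rose. With a 2-fold limit added, 33 members fell, against 2.17% of all symbols (14.1% rose past it). That count was 4 with every library scaled to the same summed FPKM. All 76 differences were negative, with a median of -0.979 and a range from -1.478 to -0.421 on the log2 scale, whereas the median over all symbols was 0.140. In 74 of 76 members every 5 µM library was below every control library, against 23.2% of all symbols (29.4% had every 5 µM library above), and only RPL24 and RPS26 overlapped. Of the 500 symbols outside the family that were highest in the control, 245 fell, 23 rose, and the median difference was -0.371. These 500 were picked by the same control values they are compared with, so they may lean toward a fall, which was not tested. Fewer cells with a given program and less RNA per cell cannot be told apart in bulk RNA. With every library scaled to the same summed FPKM, the median difference of the members was -0.692 and that of all symbols above 0 in every library moved from -0.0393 to 0.247, the split of calls over all symbols went from 3553 lower and 4263 higher to 1550 lower and 6623 higher, and all 76 differences stayed negative.

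**Figure D2:**
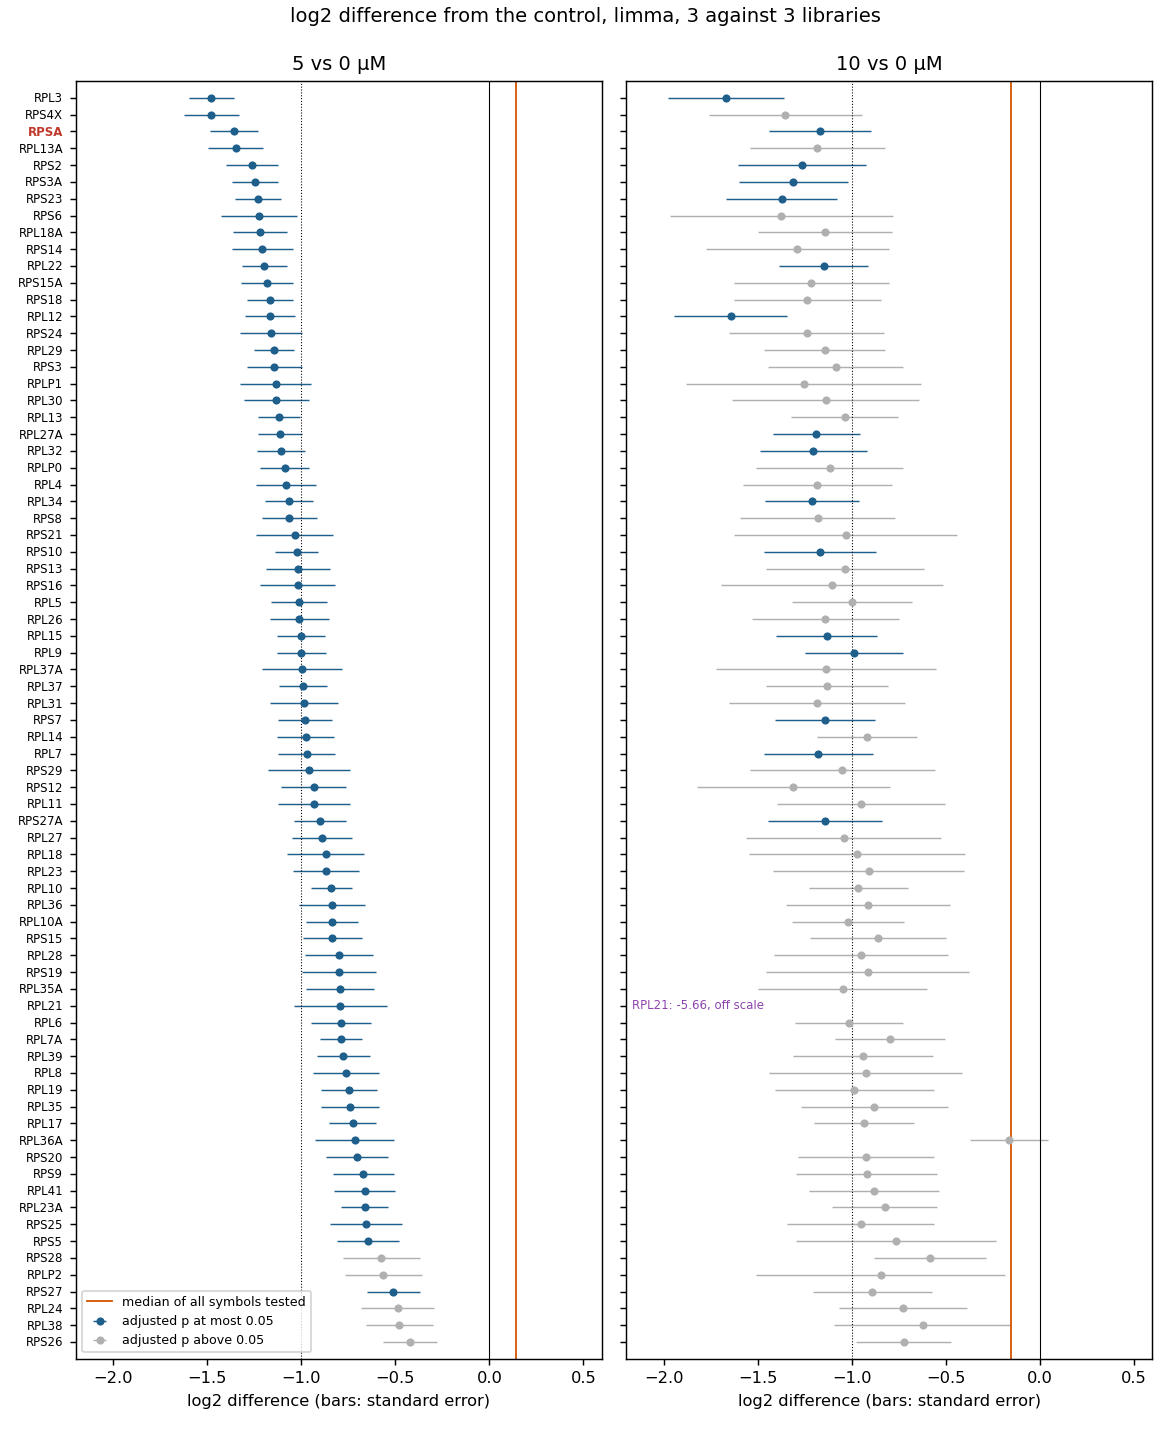
log2 difference from the control of 75 of the 76 members at 5 µM (left) and 10 µM 5-Aza (right), in the order of the 5 µM values; points are limma estimates from 3 against 3 libraries, bars are standard errors, blue marks an adjusted p of at most 0.05, the dotted line is the 2-fold limit and the orange line is the median of all symbols tested. At 5 µM every gene shown lies left of 0 and 70 are blue; at 10 µM every gene shown again lies left of 0 but the bars are longer and 16 are blue, with RPL21 (-5.66) off the scale.

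Seen by share, the family took 15.1%, 15.3% and 13.2% of the summed FPKM in the control libraries and 9.05%, 9.65% and 9.16% at 5 µM. Mean shares were 14.5% ± 1.15 and 9.29% ± 0.315 (SD, n = 3), a difference of -5.25 percentage points (exact permutation test, 2-sided p = 0.1, the smallest this design allows). The number of members among the 100 highest symbols went from 41 to 43 in the control to 36 or 37 at 5 µM. Both subunits shared in the fall: 28 of 30 small-subunit members fell, with a median of -1.02, and 43 of 46 large-subunit members fell, with a median of -0.952. Among all symbols 17.7% fell.

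RPL3, which helps to shape the peptidyl transferase center, had the most negative difference. It was at 7.92, 7.14 and 6.14 M FPKM in the control and at 2.41, 2.54 and 2.61 M FPKM at 5 µM, far apart (log2 difference -1.48, SE 0.12, limma adjusted p = 0.000453). RPS4X, the X-linked copy of a small-subunit protein, was at 15.6, 14.7 and 12.3 and then at 4.64, 5.46 and 5.14 M FPKM (-1.48, SE 0.15, adjusted p = 0.000765). RPSA came next. RPL13A, known also for its part in an interferon-γ-responsive translation inhibitor complex, was at 10.8, 10.0 and 8.26 and then at 3.44, 4.18 and 3.74 M FPKM (-1.35, SE 0.15, adjusted p = 0.000996). The groups of both genes are well separated. RPS2, at the mRNA entry of the small subunit, completed the top 5 with -1.26 (SE 0.14, adjusted p = 0.00107).

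At the other end, 5 members missed the threshold. RPS26, which touches the mRNA where it leaves the small subunit, was at 0.608, 0.569 and 0.438 M FPKM in the control and at 0.402, 0.441 and 0.357 M FPKM at 5 µM, with overlapping groups (-0.42, SE 0.14, limma adjusted p = 0.0609). RPL38, known for tissue-specific effects on Hox mRNA translation in mouse embryos, was at 16.2, 15.2 and 11.9 and then at 10.0, 11.4 and 9.47 M FPKM (-0.48, SE 0.18, adjusted p = 0.0791). These groups do not overlap, although the gap is small. RPL24, which forms a bridge between the subunits, gave -0.49 (SE 0.20, adjusted p = 0.0957), RPLP2 gave -0.56 (SE 0.20, adjusted p = 0.0723) and RPS28 gave -0.57 (SE 0.20, adjusted p = 0.0668). RPS27, the remaining gene of the lowest 5, fell by 0.51 on the log2 scale (adjusted p = 0.0299), a call that was lost when any 1 of 4 libraries was left out, with adjusted p = 0.0815 without control replicate 1, 0.0907 without control replicate 2, 0.0884 without 5 µM replicate 1 and 0.103 without 5 µM replicate 3.

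Seen within each library, against the median of the other members, RPL3 and RPS26 shifted in opposite directions. The log2 level of RPL3 minus that median was -0.310, -0.235 and -0.169 in the control and -0.761, -0.896 and -0.556 at 5 µM. For RPS26 it was -4.01, -3.88 and -3.98 in the control and -3.35, -3.43 and -3.43 at 5 µM. So RPL3 sank within the family and RPS26 gained. Neither pair of groups overlaps, but both genes were named for their differences in this comparison, so this is a description.

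Roles within the ribosome gave the following counts at 5 vs. 0 µM. Of the stalk, RPLP0, RPLP1 and RPL12 fell by 1.09, 1.14 and 1.17 on the log2 scale, and RPLP2 did not pass. Both proteins of the 5S particle, RPL5 and RPL11, which bind MDM2 when free of the ribosome, fell by 1.01 and 0.93. All 7 members around the exit tunnel fell, with a median of -0.746, from -1.01 in RPL26 to -0.663 in RPL23A. Of the 4 members that line the mRNA path, RPS2, RPS3 and RPS14 fell and RPS26 did not pass. Of 8 members linked to Diamond-Blackfan anaemia, an inherited red cell aplasia, 7 fell, with a median of -0.957. Beside the 93.4% for the family as a whole and the 17.7% over all symbols, none of these groups was tested as standing apart.

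RPSA lies on chromosome 3, plus strand, at 39448207 to 39467746 in GRCh37 (the build called hg19 by the authors), with the main transcript at 39448211 to 39454033. It was at 2.13, 1.92 and 1.59 M FPKM in the control, at 0.665, 0.785 and 0.738 M FPKM at 5 µM. At 10 µM it was at 0.563, 1.11 and 0.913 M FPKM. All 6 treated libraries are below all 3 control libraries, and both treated groups overlap. Group means were 1.88 ± 0.275, 0.730 ± 0.0604 and 0.862 ± 0.278 M FPKM (SD, n = 3). RPSA fell by 1.36 on the log2 scale at 5 vs. 0 µM (SE 0.13, limma adjusted p = 0.000662), rank 3 from the most negative of the 76. At 10 vs. 5 µM the difference was 0.19 (SE 0.26, adjusted p = 0.646), the second highest of the family, and it did not pass. At 10 vs. 0 µM it fell by 1.17 (SE 0.27, adjusted p = 0.0329). This last call was lost when any 1 of 5 libraries was left out and held only without 10 µM replicate 2, with adjusted p between 0.0113 and 0.118. Since the study had chosen RPSA on these samples, its p-values are not independent evidence of its direction.

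RPSA stayed near the bottom of the family, and the family fell with it. Its rank from the lowest of 76 was 10, 10 and 11 in the control, 7, 8 and 8 at 5 µM, and 11 in every 10 µM library. Its log2 level minus the median of the other members was -2.204, -2.13 and -2.12 in the control, -2.62, -2.59 and -2.38 at 5 µM, and with 10 µM it was -2.39, -2.34 and -2.32. The control libraries are above all treated libraries, and the 5 µM and 10 µM values overlap. The difference within the family was -0.379 at 5 vs. 0 µM, 0.178 at 10 vs. 5 µM and -0.201 at 10 vs. 0 µM (exact permutation tests, 2-sided p = 0.1, 0.2 and 0.1, where 0.1 is the smallest possible). With only the small-subunit members as the reference, the difference was -0.2206 at 5 vs. 0 µM, 0.1972 at 10 vs. 5 µM and -0.02338 at 10 vs. 0 µM (p = 0.1, 0.1 and 1, same exact test), so its size depends on the members it is set against.

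**Figure D3:**
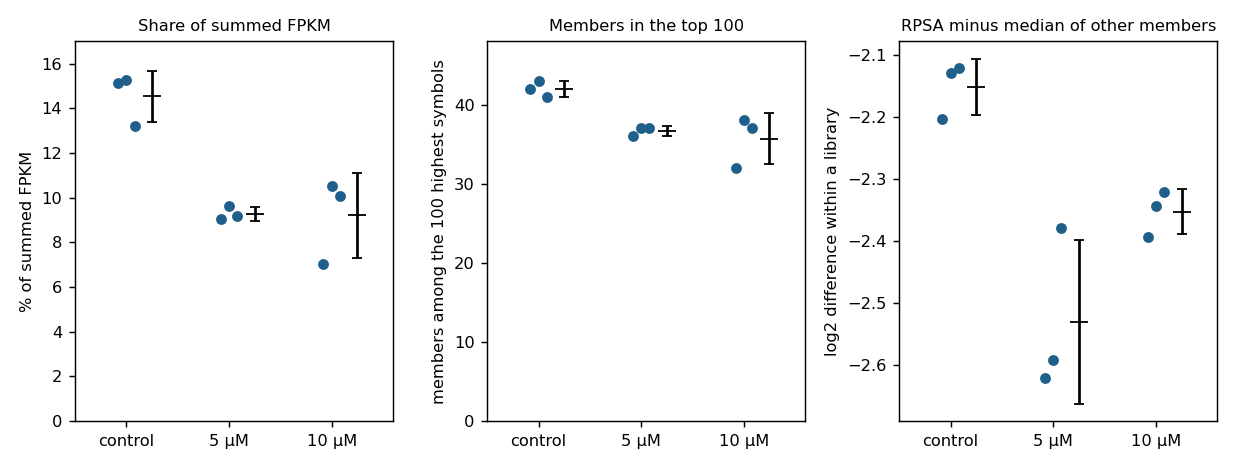
Measures per library, with points for the 3 replicates and bars for mean and SD: the members' share of summed FPKM (%), the number of members among the 100 highest symbols, and the log2 level of RPSA minus the median of the other members. All treated libraries lie below all control libraries in each panel, and the 5 µM and 10 µM points overlap in the first 2 panels and slightly in the last.

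RPSA has near-identical processed copies, and reads may be divided among them. RPSAP58 was listed above RPSA in every library, at 2.91, 2.75 and 2.21 M FPKM in the control, 0.939, 1.08 and 1.04 at 5 µM. With 10 µM it was at 0.746, 1.57 and 1.32 M FPKM. The ratio of RPSAP58 to RPSA stayed between 1.32 and 1.45 in the 9 libraries. RPSAP9 was at 0.260, 0.249 and 0.1997 M FPKM in the control and between 0.0891 and 0.114 at 5 µM. RPSAP58 and RPSAP9 fell at 5 vs. 0 µM (by 1.36 and 1.21, limma adjusted p = 0.000612 and 0.00113), and RPSAP52, under 0.00964 M FPKM or at that value in every library, did not pass. With RPSA and its 3 copies summed, the difference within the family was -0.369 at 5 vs. 0 µM. The level of RPSA itself is thus uncertain.

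The second comparison, 10 µM vs. 5 µM 5-Aza, asks what a higher dose added. No member was called in either direction by limma, and none reached an unadjusted p under 0.05, whereas 5.85% of the 20085 symbols tested fell and 0.319% rose, 4.82% and 0.129% past the 2-fold limit. In all 76 members the libraries of the 2 doses overlap, whereas 25.3% of all symbols were lower and 4.37% higher in every 10 µM library. The median difference was -0.123, with 62 of 76 negative, but its sign depended on the scaling: it was 0.0803 under median-of-ratios scaling, with 17 negative, and -0.0303 under equal sums. The members' median was 2.683, 5.305 and 4.229 M FPKM at 10 µM, on both sides of the 5 µM values. Shares of the summed FPKM were 7.02%, 10.5% and 10.1%, a mean of 9.20% ± 1.90 that differed from 5 µM by -0.0857 percentage points (exact permutation test, p = 1). Without 10 µM replicate 1 the difference in share was 1.005, and the median difference of the members was 0.159.

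The most negative values at 10 vs. 5 µM belonged to RPL21, RPL12, RPS27, RPS12 and RPS26, and the highest to RPL36A, RPSA, RPL13A, RPS4X and RPL13, none of which passed. RPL21 was at 0.375, 0.228 and 0.232 M FPKM at 5 µM and at 0.214 and 0.310 M FPKM in the first 2 libraries at 10 µM, but at 11.16 FPKM in replicate 3. That one library sets its log2 difference of -4.86 (limma adjusted p = 0.432), which was -0.0748 without it. In the same library RPL21P28 was at 1.88 M FPKM, the highest of the 3 at 10 µM; whether reads moved between these copies was not tested. RPL12, which binds at the base of the stalk, was at 0.862, 0.893 and 0.837 and then at 0.397, 0.856 and 0.705 M FPKM (-0.48, SE 0.28, adjusted p = 0.320). RPL36A, the lowest member of the family in the control, was at 0.160, 0.111 and 0.0991 and then at 0.173, 0.142 and 0.226 M FPKM (0.55, SE 0.24, adjusted p = 0.207). Its libraries at the 2 doses overlap.

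The third comparison, 10 µM vs. 0 µM 5-Aza, shares its control with the first. Values were as low as at 5 µM but the spread between the 10 µM libraries was larger. The median difference was -1.05, all 76 were negative, and 71 members had every 10 µM library below every control library, against 26.7% of all symbols (14.4% were higher in every 10 µM library). The 16 members that passed all fell (9.71% of 18928 symbols fell and 5.39% rose), 15 of them past the 2-fold limit (3.4% of all symbols, with 4.07% higher past it), and 50 members had an unadjusted p under 0.05. Of the 500 symbols outside the family that were highest in the control, 105 fell and 5 rose. That is 21.0% lower, close to the 21.1% of the members, with a median difference of -0.595. The 16 were RPL3, RPL7, RPL9, RPL12, RPL15, RPL22, RPL27A, RPL32, RPL34, RPS2, RPS3A, RPS7, RPS10, RPS23, RPS27A and RPSA. This count rested on single libraries: it was 0 without control replicate 1, control replicate 2 or 10 µM replicate 3, it was 3 without control replicate 3, 7 without 10 µM replicate 1 and 54 without 10 µM replicate 2. Replicates 1 and 2 at 10 µM were the lowest and the highest of their group in the members' median. The share of summed FPKM was 5.34 percentage points below the control, from 14.5% to 9.20% (exact permutation test, p = 0.1).

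RPL3 was at 1.59, 3.02 and 2.26 M FPKM at 10 µM, all below its control values (-1.67, SE 0.31, limma adjusted p = 0.0183). RPL12 was at 2.23, 2.07 and 1.58 M FPKM in the control, above all its values at 10 µM (-1.64, SE 0.30, adjusted p = 0.0179). RPS23, a protein of the decoding center, fell by 1.37 (adjusted p = 0.0269). RPS6 had the same difference of -1.37 with a larger spread (SE 0.59, adjusted p = 0.145) and did not pass. RPL21 again had the most negative value, -5.66, from 1 library. The least negative values were those of RPL36A at -0.16, RPS28 at -0.58, RPL38 at -0.62, RPS26 at -0.72 and RPL24 at -0.73, none of which passed and all of which overlapped the control. For RPL36A the sign itself depended on the scaling.

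Of 10 paralogs and fusions outside the rule 2 fell and 2 rose at 5 vs. 0 µM, shares close to the 17.7% and 21.3% of all symbols. FAU, the fusion that yields eS30, fell by 0.46 (limma adjusted p = 0.0338). RPL10L, a testis copy of RPL10, was listed at 0 in all control libraries and at 14371, 9522 and 12438 FPKM at 5 µM, an estimated 27, 17 and 25 fragments. At 10 µM it was at 0 in 2 libraries and at an estimated 2 fragments in the other. RPL39L, likewise known from testis, was at 0 in the control and at an estimated 4, 4 and 3 fragments at 5 µM. Both entered the test only through their 5 µM values, so their levels are given as a description. The 5 µM libraries were also the deepest, and the few fragments of RPL39L limit what can be read from it. RPL3L, the copy used by striated muscle, had an estimated 0, 3 and 0 fragments in the control and 9, 8 and 7 at 5 µM and did not pass (adjusted p = 0.0777). RPS27L, RPL7L1, RPL22L1, RPL26L1 and RPL36AL, which many tissues use, did not pass, with differences from -0.39 in RPL22L1 to 0.34 in RPS27L. At its level RPL10L added little beside its parent: RPL10 was at 1.78, 1.99 and 1.91 M FPKM at 5 µM.

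Other genes whose mRNAs carry a TOP tract fell as well. Of 15 such genes, 13 fell at 5 vs. 0 µM and none rose, with a median of -0.965. Among all symbols 17.7% fell and 21.3% rose, and of the 500 highest other symbols 245 fell and 23 rose. EEF1B2, which recharges elongation factor 1A with GTP, went from 3.03, 2.98 and 2.48 to 0.973, 1.13 and 0.959 M FPKM, far apart (-1.47, limma adjusted p = 0.000383). EEF1D, which acts in the same complex, was at 2.65, 2.47 and 2.08 and then at 2.43, 2.37 and 2.23 M FPKM, with overlapping groups (-0.03, adjusted p = 0.847). EEF2, the translocase, and GNB2L1, the scaffold on the small subunit now called RACK1, fell by 1.26 and 1.14. TPT1, the highest gene of the list at 59.4 to 70.2 M FPKM in the control, gave -0.64 and did not pass (adjusted p = 0.126).

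Genes that build ribosomes without being part of them had smaller differences. Of 30 assembly factors 21 fell and none rose, with a median of -0.572, from -1.14 in FBL, the rRNA methyltransferase fibrillarin, to 0.23 in NOP10, which did not pass. Of 15 genes of the RNA polymerase I machinery 8 fell and 2 rose, with a median of -0.262: POLR1E fell by 1.17 and TTF1, which terminates rRNA transcription, rose by 0.56. Of 76 mitochondrial ribosomal proteins 40 fell and 1 rose, with a median of -0.411, from -1.44 in MRPL15 to 0.65 in MRPL33. Of 48 symbols that begin with EIF, a few of which are not initiation factors, 24 fell and 5 rose, with a median of -0.327. EIF3L fell by 1.20, and the highest value belonged to EIF3CL, a near copy of EIF3C. It was at 3.05, 1.83 and 1.53 FPKM in the control and at 9677, 11425 and 18613 FPKM at 5 µM while EIF3C was above 1 M FPKM in both groups. EIF3CL is among the 5 that rose, but it entered the test only through its 5 µM values. Its levels are therefore a description. Over all symbols 17.7% fell and 21.3% rose. At 10 vs. 0 µM the medians of these lists were -0.385, -0.0837, -0.494 and -0.549, and that of the other TOP genes was -1.06.

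**Figure D4:**
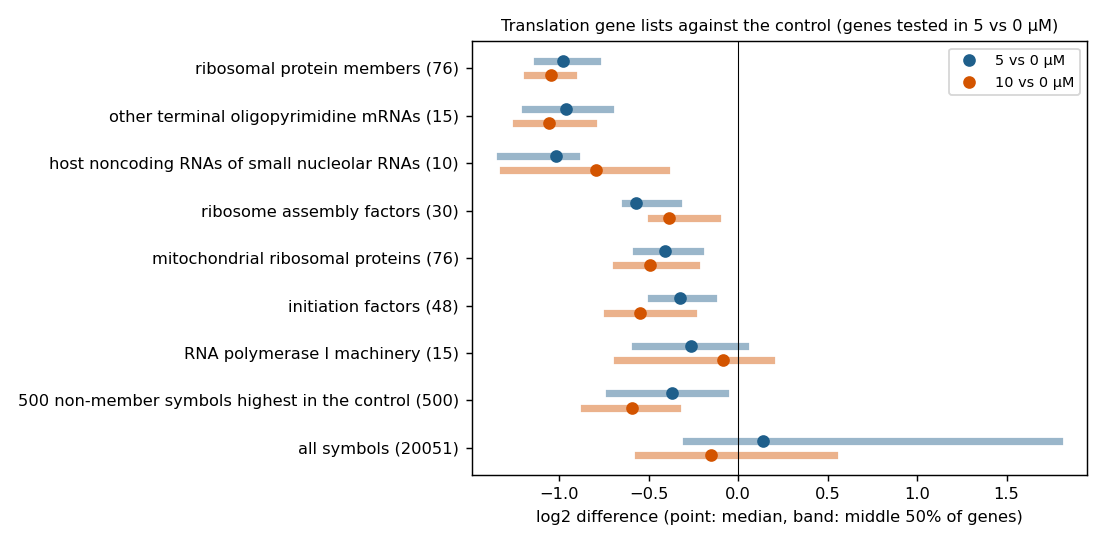
Median (points) and middle 50% of genes (bands) of the log2 difference from the control for the ribosomal protein members, other translation gene lists, the 500 highest other symbols and all symbols, at 5 µM (blue) and 10 µM 5-Aza (orange). The members and the other TOP genes have medians near -1 in both comparisons, and the assembly factor, mitochondrial, initiation factor and RNA polymerase I lists lie between them and 0.

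Differences between the lists were not tested.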

How the data were processed

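HT-29 RNA from 9 cultures was sequenced as paired-end TruSeq RNA-Seq libraries. The authors filtered reads with FASTX-Toolkit, used TopHat with the hg19 build, and deposited gene-level FPKM made by Cufflinks, whose options and annotation version were not given in the sources used here. Use of strand was not stated, so antisense and overlapping genes, like near copies, cannot be told apart. Values of the 543 symbols on several entries were summed and transformed as log2(FPKM + 1), so every difference is on that scale. A symbol was tested when its largest value in the 2 groups reached 10. Each comparison used its 6 libraries in limma 3.58.1 (R 4.3.3; lmFit, eBayes with trend, no replicate block) with Benjamini-Hochberg adjustment over all symbols, called at 0.05, and a 2-fold limit where stated. Single measures were compared by exact 2-sided permutation tests with scipy 1.17.1. Scripts were tested on simulated data.

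Groups came from the sample labels. The limma p-values set a difference in group means against the spread between these cultures, and the permutation p-values set it against relabelled libraries. Genes named are RPSA, the 5 highest and lowest members by difference, control level and SD, role groups, and the extremes of each list, while other genes were chosen after their values were seen. The members and lists were chosen with earlier results of these data known. Positions are from GENCODE on GRCh37, and promoters from RefSeq on GRCh38.p14. Some members are not reported here by name.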

Additional observations from a re-analysis of the deposited data

How the results depend on the processing

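The cause of the changes below was not tested unless fewer samples are the setting itself. At 5 vs. 0 µM the count of members that fell was 71, 40 with all 9 libraries in one fit and 51 to 73 with 1 library left out. The count past the 2-fold limit was 33, 4 with equal sums and 26 to 45 with 1 library left out. The median difference of the members was -0.692 with equal sums. RPSA stayed called at 5 vs. 0 µM under all alternatives, between -1.474 and -1.071. At 10 vs. 0 µM the count of 16 became 50 with all 9 libraries in one fit, 33 under median-of-ratios scaling, 38 with equal sums and 0 to 54 with 1 library left out, and the count of 15 past the 2-fold limit became 37, 6, 2 and 0 to 53. RPSA at 10 vs. 0 µM lay between -1.38 and -0.8896 with 1 library left out, and RPL36A turned to 0.0780 and 0.2155 under median-of-ratios scaling and equal sums. With the replicate number as a block, 63 members fell at 5 vs. 0 µM (33 past the 2-fold limit), 0 at 10 vs. 5 µM and 7 at 10 vs. 0 µM (7 past the limit), RPSA at 10 vs. 0 µM was -1.169 with adjusted p = 0.0526, and RPS26 at 5 vs. 0 µM reached adjusted p = 0.0315. Libraries of the same number correlated between -0.074 and 0.086 in their deviations over 9 pairs, so the numbers are not shown to pair the cultures.

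Small differences turned sign. The difference in spread between members at 5 vs. 0 µM was 0.07725 as interquartile range and -0.01942 to 0.00551 with 1 library left out, with 0.005464 without 5 µM replicate 1. At 10 vs. 5 µM it was -0.08262 as interquartile range, -0.03752 without RPL21, which was added after seeing the data, and -0.03659 to 0.4679 with 1 library left out. At 10 vs. 0 µM these values were -0.005369, -0.03922 and -0.0426 to 0.4619. The difference in share at 10 vs. 5 µM was -0.7322 to 1.005 with 1 library left out (0.0936 in the other that turned) and 0.8437 over symbols of at least 300 nucleotides, also added later. RPSA at 10 vs. 5 µM was -0.02231 to 0.4686 with 1 library left out, RPL13 -0.1137 to 0.3903 (-0.02952 in the other that turned), RPS4X -0.09095 to 0.3917 and RPL13A -0.03952 to 0.4265. Another pseudocount, no filter, and the largest entry of a repeated symbol moved none of the counts of members by over 1.5 times. Depth limits the paralogs, which rest on a few fragments.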

Other observations

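Noncoding RNAs that host small nucleolar RNAs, several of which share the TOP start, were mostly lower at 5 µM. Of 10 such genes 9 fell at 5 vs. 0 µM and none rose, with a median log2 difference of -1.02. Over all symbols 17.7% fell and 21.3% rose, and of the 500 highest other symbols 245 fell and 23 rose. GAS5 went from 6.62, 6.87 and 5.75 M FPKM in the control to 2.08, 2.17 and 1.95 at 5 µM and 1.76, 3.17 and 2.72 at 10 µM, and the treated libraries are all below the control (-1.63 by limma, adjusted p = 0.000254 at 5 vs. 0 µM). SNHG3 was the exception, at 0.430, 0.506 and 0.436 and then 0.407, 0.402 and 0.322 M FPKM (-0.28, adjusted p = 0.102). At 10 vs. 5 µM none passed by limma (3 had an unadjusted p under 0.05), the median was 0.234 and 4 of the 10 were higher in every 10 µM library, against 4.37% of all symbols, whereas the ribosomal protein members had a median of -0.123 and all 76 overlapped. The difference between the lists was not tested. At 10 vs. 0 µM 5 of the 10 fell and none rose, with a median of -0.794, whereas 9.71% of all symbols fell and 5.39% rose.

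Of 27 tested symbols of the form of ribosomal protein pseudogenes, of which RPS19BP1 is a protein-coding gene, 8 fell and 2 rose at 5 vs. 0 µM, with a median of 0.0910. Over all symbols 17.7% fell and 21.3% rose. RPLP0P2 rose from 2532, 1982 and 2587 FPKM to 72851, 69532 and 68247 FPKM (4.90 by limma, adjusted p = 9.14e-05) and was at 24088, 26074 and 33074 FPKM at 10 µM, while its parent RPLP0 fell by 1.09. RPL13P5 rose by 0.59. RPL13AP20 went from 3.73, 3.51 and 2.95 to 1.35, 1.67 and 1.47 M FPKM, as RPL13A did.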
